A study of Mus musculus with 3 samples.

Results

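The complement system was followed through 32 genes in mononuclear cells of the mouse diaphragm: 3 chains of C1q, the classical proteases, the central components, the alternative and lectin pathway factors, 3 terminal components, 8 regulators and 5 receptors. The members were taken from a list by role, not by their values, and all 32 had at least 1 UMI (unique molecular identifier, a tag that marks 1 captured mRNA molecule) among the 32285 genes counted, of which 22413 had any. The diaphragms came from male mice, aged 2 months when the diet began and fed for 6 months. C57Bl/6J wild-type mice received control diet (WT CD) or high-fat diet with 45% of its calories as lipid (WT HFD), and mice of the strain B6.129S2-Thbs1tm1Hyn/J, which lack *Thbs1* in every tissue, received high-fat diet (KO HFD). Live cells from collagenase-digested muscle of 2 mice were pooled into each library, so that each group is 1 library and no mouse can be separated from the other in its pool.

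The WT CD library held 4132 cells and 34312860 UMIs, the WT HFD library 3774 cells and 31967976 UMIs, and the KO HFD library 4369 cells and 36478779 UMIs. The median cell carried 7632.5, 8041.5 and 7554 UMIs, in that order. Between 9 and 14 barcodes of each library also occurred in another library, and 41 to 58 cells of each library were called doublets and kept. Because a group is 1 library, no difference between groups could be tested, and every interval given here is a 95% counting interval that leaves out the variation between mice and between preparations.

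Complement is a cascade of plasma proteins that tags and lyses targets and calls in leukocytes. C1q recognises antibody or altered surfaces and switches on the proteases C1r and C1s, which cleave C4 and C2 into an enzyme that splits C3. Factor B, factor D and properdin build and stabilise the alternative pathway enzyme that amplifies C3 cleavage, and C5 to C9 assemble the membrane pore. Soluble and membrane-bound regulators protect host cells, and the fragments C3a and C5a act on receptors of myeloid cells. The liver supplies most of the plasma proteins, whereas macrophages are a known source of C1q and stromal cells also make complement components.

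Cells were grouped by clustering on genes other than complement genes, and each cluster was named from markers of known cell types. Fibro-adipogenic progenitor (FAP)-like cells, the resident mesenchymal cells of muscle, were the most numerous class with 2250 cells in WT CD, 1995 in WT HFD and 2412 in KO HFD, and their markers *Pdgfra*, *Pdgfrb*, *Dcn* and *Osr1* summed to 17023, 14877 and 16430 CPM (the UMIs of a gene per 1000000 UMIs of the summed cells). Macrophage-like cells numbered 226, 402 and 439, or 5.47%, 10.7% and 10.0% of their libraries. Muscle stem cell (MuSC)-like cells numbered 1261 over the 3 libraries, endothelial-like cells 881, B cell-like cells 601, lymphatic-like cells 274, T or NK cell-like cells 238 and mesothelial-like cells 177. Smaller classes were cycling cells (122), monocyte-like (110), Schwann-like (104), plasma cell-like (104), dendritic cell-like (88), mural cell-like (73), erythroid (59) and neutrophil-like (57) cells, and 380 cells stayed unnamed. Each cluster of cycling cells also matched the markers of another class, namely macrophage, dendritic cell, MuSC or FAP. A level in cycling cells therefore pools several cell types. Hepatocyte markers were near zero in all 3 libraries (0.67, 1.35 and 1.21 CPM), with *Alb* and *Fgb* at 0 UMIs in WT CD and KO HFD. A level below is the CPM of UMIs summed over the cells of a class. These 3′ tag counts carry no length term, and so levels were compared between cells for 1 gene, and not between genes as amounts of mRNA per length.

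The C1q chains belonged to macrophage-like cells. *C1qa*, *C1qb* and *C1qc*, which encode the A, B and C chains of the recognition molecule, lie side by side on the minus strand of chromosome 4 (GRCm38, 136895917 to 136898803, 136880129 to 136886187 and 136889804 to 136893065). Bases upstream of the start of 2 of the 3 chains and of *C3* are shown as examples of a gene cluster read mainly in macrophage-like cells and a gene read mainly in FAP-like cells. The capitals mark GAGGAA, the core of the motif of the myeloid factor PU.1, on either strand (TTCCTC is the same site read from the opposite strand), and the letters are from RefSeq on GRCm38.p6, read 5′ to 3′ on the strand of the gene (minus for all 3).
C1qb, chr4:136886201-136886450: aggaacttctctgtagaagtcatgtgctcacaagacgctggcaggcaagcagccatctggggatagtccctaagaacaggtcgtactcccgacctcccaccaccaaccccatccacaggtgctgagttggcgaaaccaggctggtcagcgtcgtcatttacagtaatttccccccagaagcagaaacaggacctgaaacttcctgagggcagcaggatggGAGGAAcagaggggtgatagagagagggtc
C1qc, chr4:136893066-136893164: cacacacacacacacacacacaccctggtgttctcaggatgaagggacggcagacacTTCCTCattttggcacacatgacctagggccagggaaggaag
C3, chr17:57228137-57228386: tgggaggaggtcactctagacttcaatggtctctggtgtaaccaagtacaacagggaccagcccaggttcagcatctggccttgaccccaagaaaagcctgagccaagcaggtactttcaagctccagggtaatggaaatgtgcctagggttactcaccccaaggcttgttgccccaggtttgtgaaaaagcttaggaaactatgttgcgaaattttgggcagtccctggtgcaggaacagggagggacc
The *C1qc* window is limited to the 99 bases that precede both the RefSeq and the GENCODE start. The hexamer ended 24 bases from the window's downstream end in *C1qb* and 36 bases from it in *C1qc*, and the *C3* window held none. Of the 32 members, 23 had an entry in the promoter table, and 5 of them (*Fcna*, *Cd59a*, *C1qb*, *C1qc* and *Vsig4*, 21.7%) held GAGGAA in the 250 bases before the RefSeq start, against 23.1% of all 27025 promoters. The share among the members lay near that of all promoters, so the match is a description of these windows and sets the members apart from nothing. TTCNNNGAA, the motif of STAT factors, occurred in 2 of 23 members (8.70%, *Masp2* and *C7*) against 7.18% of all promoters, with both strands read for either motif.

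Macrophage-like cells carried 2606 CPM of *C1qa* (2577 to 2634), 3268 CPM of *C1qb* (3236 to 3300) and 1726 CPM of *C1qc* (1703 to 1749). Cycling cells were next at 511, 844 and 365 CPM, and T or NK cell-like cells followed at 103, 167 and 63.1 CPM. Of all 100464 UMIs of the C1q chains, 93405 lay in macrophage-like cells (93.0%, 92.8% to 93.1%), with 90.5% in WT CD, 94.0% in WT HFD and 93.2% in KO HFD. A share of this kind depends on how many cells of each class were captured as well as on the RNA in each cell, and in summed counts fewer cells and less RNA per cell cannot be told apart. In the macrophage-like class 78.7% of cells had a *C1qa* UMI (74.1% after each cell was thinned to 3000 UMIs), against 0.826% of FAP-like cells (0.339% thinned), whose median depths were 9514 and 8606 UMIs.

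The C1q counts outside the macrophage-like class sat in few cells. Among 601 B cell-like cells, 16 cells with at least 10 C1q UMIs held 97.1% of that class's C1q counts. Those 16 cells carried a median of 126.5 UMIs of the macrophage markers against 0 in the other B cell-like cells, and 1 of them was called a doublet. Their median depth was 16509 UMIs, against 7524 over the whole B cell-like class. In cycling cells 30 of 122 held 99.3%, with a median of 171.5 macrophage marker UMIs against 0.5 in the rest, in T or NK cell-like cells 4 held 97.6%, and in plasma cell-like cells 5 held 99.3%. The median depths of these cells were 19252, 18771 and 34159 UMIs, in that order. Those of their whole classes were 16863.5, 5640.5 and 22050 UMIs. No FAP-like cell of 6657 reached 10 C1q UMIs, whereas 843 of 1067 macrophage-like cells did. The 3 chains were counted at a ratio of 34.3% *C1qa* to 43.0% *C1qb* to 22.7% *C1qc* in macrophage-like cells, 35.6% to 44.3% to 20.1% in B cell-like cells and 30.7% to 46.0% to 23.3% in the 189 C1q UMIs of FAP-like cells.

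The classical proteases came from stromal cells. *C1ra* encodes C1r, the first protease switched on by C1q, and was highest in mesothelial-like cells at 620 CPM (585 to 655), followed by FAP-like cells at 348 and mural cell-like cells at 89.5. *C1s1*, the protease that cleaves C4 and C2, stood at 626, 520 and 370 CPM in the same 3 classes, and *C1rl*, a C1r-like protease, at 32.7 CPM in mesothelial-like and 8.30 in FAP-like cells. Because FAP-like cells were so numerous they held 90.3% of the *C1ra* UMIs, 92.7% of those of *C1s1* and 78.7% of those of *C1rl*. Thus the recognition chains and the proteases of the C1 complex were read from different classes in each library.

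The substrates of C1s and the centre of the cascade were highest in the mesothelium, the lining of the muscle surface. *C2*, which supplies the protease of the classical C3-splitting enzyme, reached 462 CPM in mesothelial-like cells (433 to 493) against 50.8 in mural cell-like and 11.4 in FAP-like cells, and a *C2* UMI was found in 90.4% of mesothelial-like cells against 0.634% of MuSC-like cells at median depths of 10206 and 5159 UMIs (68.0% against 0.173% thinned). *C4b*, the mouse C4 gene, reached 1653 CPM in mesothelial-like cells (1596 to 1711), 187 in Schwann-like, 162 in macrophage-like and 121 in FAP-like cells. *C3*, the hub on which all pathways meet, was the most counted member with 129409 UMIs. It stood at 5719 CPM in mesothelial-like cells (5614 to 5826), 1909 in FAP-like cells (1898 to 1921) and 210 in neutrophil-like cells, where 20 of the 24 UMIs of the KO HFD library lay in 1 cell. All 177 mesothelial-like cells had a *C3* UMI, as did 81.7% of FAP-like cells (76.4% thinned) against 4.44% of MuSC-like cells (3.20% thinned). FAP-like cells held 87.8% of all *C3* UMIs (113684 of 129409, 87.7% to 88.0%) and mesothelial-like cells 8.65%. By library the FAP-like share was 90.7%, 83.9% and 88.9% in WT CD, WT HFD and KO HFD, and the mesothelial-like share 5.61%, 13.5% and 6.96%, beside 40, 86 and 51 mesothelial-like cells captured.

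The alternative pathway was split in the same way between stroma and myeloid cells. *Cfb*, factor B, stood at 554 CPM in mesothelial-like cells (521 to 588), 54.0 in FAP-like and 32.0 in lymphatic-like cells. *Cfp*, properdin, which stabilises the enzyme that factor B forms, was read in macrophage-like cells at 507 CPM (495 to 520), in cycling cells at 236 and in dendritic cell-like cells at 86.3, and 77.8% of its UMIs lay in macrophage-like cells. The cycling cells included clusters that also matched macrophage or dendritic cell markers. *Cfd*, factor D or adipsin, the protease that activates factor B and is best known from adipocytes, had 234 UMIs in all. Its highest class level, 14.9 CPM in cycling cells, rested on 34 UMIs in 1 WT HFD cell.

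The lectin pathway genes were sparse apart from *Colec12*, a membrane collectin that binds sugars. *Colec12* stood at 208 CPM in mesothelial-like cells, 157 in FAP-like, 87.5 in lymphatic-like and 27.7 in macrophage-like cells. *Fcna*, ficolin A, was a macrophage-like gene at 75.7 CPM (70.9 to 80.7) with 95.1% of its UMIs in that class. The protease genes *Masp1* and *Masp2* had 251 and 13 UMIs, and 90.4% of the *Masp1* UMIs lay in FAP-like cells at 3.81 CPM.

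Of the terminal components only *C7*, which anchors the growing pore in the membrane, was plentiful. It stood at 266 CPM in FAP-like cells (262 to 270), against Schwann-like cells at 27.1 and lymphatic-like cells at 26.9, and 97.0% of its 16313 UMIs lay in FAP-like cells. *C6* had 71 UMIs, 67 of them in 31 macrophage-like cells, and *Hc*, which encodes C5, had 11 in all 3 libraries together.

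The regulators divided by class. *Serping1*, the C1 inhibitor that shuts off C1r and C1s, stood at 1879 CPM in FAP-like cells (1868 to 1891), 1587 in mesothelial-like and 706 in mural cell-like cells, so that the classes with the proteases also carried their inhibitor. *Clu*, clusterin, which blocks pore insertion, led in mesothelial-like cells at 983 CPM (939 to 1028), then endothelial-like cells at 335 and mural cell-like cells at 213, although 82.2% of the WT HFD mural cell-like counts of *Clu* lay in 5 cells. *Vtn*, vitronectin, a further inhibitor of the pore, led in mural cell-like cells at 788 CPM (705 to 879), with FAP-like cells at 83.2 and MuSC-like cells at 41.9. *Cd55*, which speeds the decay of the C3-splitting enzymes, was highest in FAP-like cells at 384 CPM (379 to 389), followed by mesothelial-like (168), lymphatic-like (150) and B cell-like cells (134). *Cd59a*, which stops pore assembly on the cell's own membrane, was highest in Schwann-like cells at 400 CPM (345 to 460) with a UMI in 75 of 104 cells, then in endothelial-like cells at 89.2, and was at 6.23 CPM in FAP-like cells. *Cr1l*, the rodent regulator Crry, was the most evenly spread member, with 158 CPM in endothelial-like cells (145 to 172), 86.9 in lymphatic-like, 85.3 in mesothelial-like and 80.4 in FAP-like cells and at least 10 CPM in 15 classes. *Cd46* and *Cfi*, a cofactor and the protease factor I, had 94 and 3 UMIs.

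Receptors were read mostly in leukocytes. *C3ar1*, the C3a receptor, stood at 128 CPM in macrophage-like cells (122 to 135), 47.0 in cycling cells and 12.1 in dendritic cell-like cells, with 2 UMIs in all FAP-like cells. *C5ar1*, the main C5a receptor, was highest in neutrophil-like cells at 251 CPM (170.5 to 356, 31 UMIs in 24 of 57 cells), then macrophage-like cells at 101 and monocyte-like cells at 41.2. *C5ar2*, the second C5a receptor, had 183 UMIs, of which 120 lay in 96 macrophage-like cells and 33 in 27 lymphatic-like cells, at 9.76 and 18.5 CPM. *Vsig4*, the receptor of tissue macrophages for C3 fragments, had 328 of its 330 UMIs in 62 macrophage-like cells. *Cr2*, complement receptor 2 of B cells, stood at 21.2 CPM in B cell-like cells (17.5 to 25.6, 111 UMIs in 78 of 601 cells), a UMI in 13.0% of them against 0.18% of FAP-like cells.

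Genes close in sequence to a member could share its reads, and these counts do not settle how such reads were divided: *C4a* had 45 UMIs, *C1rb* 2, *C1s2* 14, *Cd59b* 361 and *Cd55b* 18. Among 28 other complement genes, *Cd93* reached 454 CPM in endothelial-like cells. The integrin chains of complement receptor 3 were myeloid, with *Itgam* at 267 CPM in neutrophil-like, 234 in macrophage-like and 198 in monocyte-like cells and *Itgb2* at 478 CPM in monocyte-like and 254 in macrophage-like cells. *Colec11*, a soluble collectin, stood at 264 CPM in mural cell-like cells, and the C1q-binding proteins *C1qbp* and *Calr* at 139 CPM in MuSC-like cells and 728 CPM in mesothelial-like cells. The pore components *C8a* and *C8b* and the lectin *Mbl1* had 0 UMIs, which allows up to 3 UMIs in all.

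FAP-like cells were not uniform. They fell into 7 clusters, called here by their leading genes, and C1r to C3 peaked together in 1 of them. *C3* ran from 3860 CPM in the *Sult1e1 Col6a5* cluster (902 cells) and 2542 in the *Gdf10 Col6a5* cluster (1147 cells) to 717 in the *Avpr1a Sfrp2* cluster (1150 cells), a 5.38-fold range. In the *Sult1e1 Col6a5* cluster the *C3* level was 3723 CPM in WT CD, 4088 in WT HFD and 3837 in KO HFD, and in the *Avpr1a Sfrp2* cluster 581, 765 and 827 CPM, so that the clusters stood apart in every library by more than the libraries differed within a cluster. *C4b* had a wider range, from 423 CPM in the *Sult1e1 Col6a5* cluster to 21.5 in the *Stmn4 Dact2* cluster (1181 cells), or 19.6-fold, and was 407, 416 and 439 CPM in the former in WT CD, WT HFD and KO HFD. *C2* (35.5 CPM), *Cfb* (128 CPM), *C1ra* (493 CPM) and *C1s1* (775 CPM) were also highest in the *Sult1e1 Col6a5* cluster. That cluster held 15.4% of the FAP-like UMIs but 53.8% of their *C4b*, 48.2% of their *C2*, 36.5% of their *Cfb* and 31.2% of their *C3*.

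Other members peaked elsewhere. *C7* was highest in the *Avpr1a Sfrp2* cluster, where *C3* was lowest, at 436 CPM against 150 in the *Stmn4 Dact2* cluster. *Vtn* was highest in the *Cxcl14 Mme* cluster (1327 cells), at 242 CPM over the 3 libraries against 19.5 in the *Avpr1a Sfrp2* cluster, but the *Ifit1 Ifit3* cluster, with 19 to 25 cells in each library, was next at 229.9 CPM and ranked first for *Vtn* in WT HFD and KO HFD. *Colec12* was also highest in the *Cxcl14 Mme* cluster at 200.1 CPM. *Cd55* reached 1005 CPM in the *Stmn4 Dact2* cluster (881, 1078 and 1033 CPM in WT CD, WT HFD and KO HFD) against 137 in the *Avpr1a Sfrp2* cluster, and the *Stmn4 Dact2* cluster held 54.9% of the FAP-like *Cd55* UMIs with 21.0% of all UMIs. Over the 3 libraries *Clu* was highest in the *Gdf10 Col6a5* cluster at 129 CPM and lowest in the *Stmn4 Dact2* cluster at 16.9. *Serping1* barely varied, from 2122 CPM in the small *Ifit1 Ifit3* cluster (63 cells) to 1705 in the *Stmn4 Dact2* cluster, or 1.24-fold. The same cluster ranked first in all 3 libraries for *C1ra*, *C1s1*, *C2*, *C4b*, *C3*, *C1rl*, *Masp1*, *C7*, *Colec12* and *Cd55*.

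**Figure D1:**
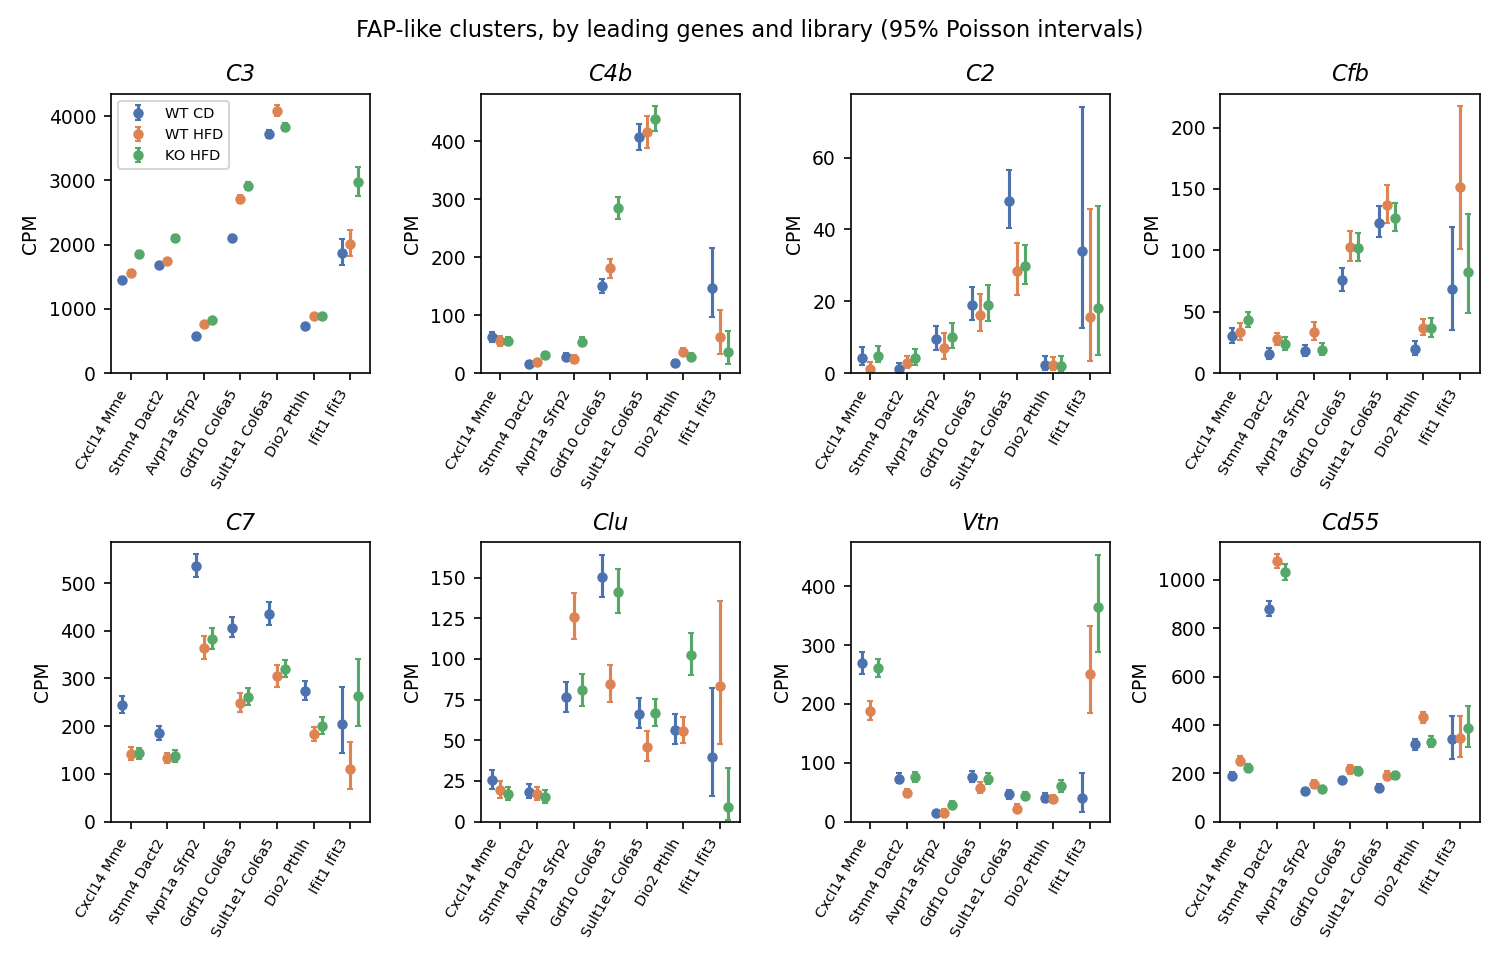
Each panel gives 1 complement gene in CPM (y axis) across the FAP-like clusters (x axis), with 1 point for each library and exact Poisson 95% intervals. In every library *C3*, *C4b* and *C2* peak in the *Sult1e1 Col6a5* cluster, *C7* in *Avpr1a Sfrp2* and *Cd55* in *Stmn4 Dact2*, while the small *Ifit1 Ifit3* cluster tops *Cfb* in WT HFD and *Vtn* in WT HFD and KO HFD.

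Macrophage-like cells formed 9 clusters that differed widely in C1q. Summed over the 3 libraries, *C1qa* was highest in the *Cd209f Cd209g* cluster (163 cells) at 6292 CPM, the *Ms4a7 Ccl12* cluster (279 cells) at 5319 and the *Folr2 Fxyd2* cluster (105 cells) at 4969. It was lowest in the *Dcstamp Cebpe* (154 cells) and *Lyz1 Retnla* (90 cells) clusters at 387 and 159 CPM. In WT CD alone the *Ms4a7 Ccl12* cluster ranked first for *C1qa*, *C1qb* and *C1qc*. *Cfp* reached 730.5 CPM in the *Lyz1 Retnla* cluster against 328 in *Cd209f Cd209g* and 228 in *Atp6v0d2 Mmp12* (100 cells), but was higher still, at 1280 and 1258 CPM, in the *Serpinb2 Alox15* and *Saa3 Cd5l* clusters. Among the C1q-rich clusters, *Fcna*, *Vsig4* and *C4b* marked only some. *Fcna* stood at 285 CPM in *Cd209f Cd209g* and 250 in *Folr2 Fxyd2* but 57.6 in *Ms4a7 Ccl12*, and *C4b* at 450, 257 and 27.6 CPM. The receptors *C3ar1* and *C5ar1* were highest in *Cd209f Cd209g* at 320 and 252 CPM and lowest in *Lyz1 Retnla* at 12.4 and 2.32 CPM.

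Macrophage-like *C4b* was concentrated in 2 small clusters and 2 larger ones. It stood at 1012 CPM in the *Serpinb2 Alox15* cluster (42 cells) and 826 in the *Saa3 Cd5l* cluster (36 cells), and at 0 UMIs in *Lyz1 Retnla*. The *Serpinb2 Alox15*, *Cd209f Cd209g*, *Saa3 Cd5l* and *Folr2 Fxyd2* clusters held 33.5%, 27.1%, 22.4% and 10.5% of the macrophage-like *C4b* UMIs, with 5.34%, 9.74%, 4.39% and 6.58% of all UMIs of the class. The *Serpinb2 Alox15* cluster itself was unevenly spread, with 1 cell in WT CD, 37 in WT HFD and 4 in KO HFD (0.44%, 9.20% and 0.91% of macrophage-like cells). The *Saa3 Cd5l* cluster had 7, 19 and 10 cells.

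**Figure D2:**
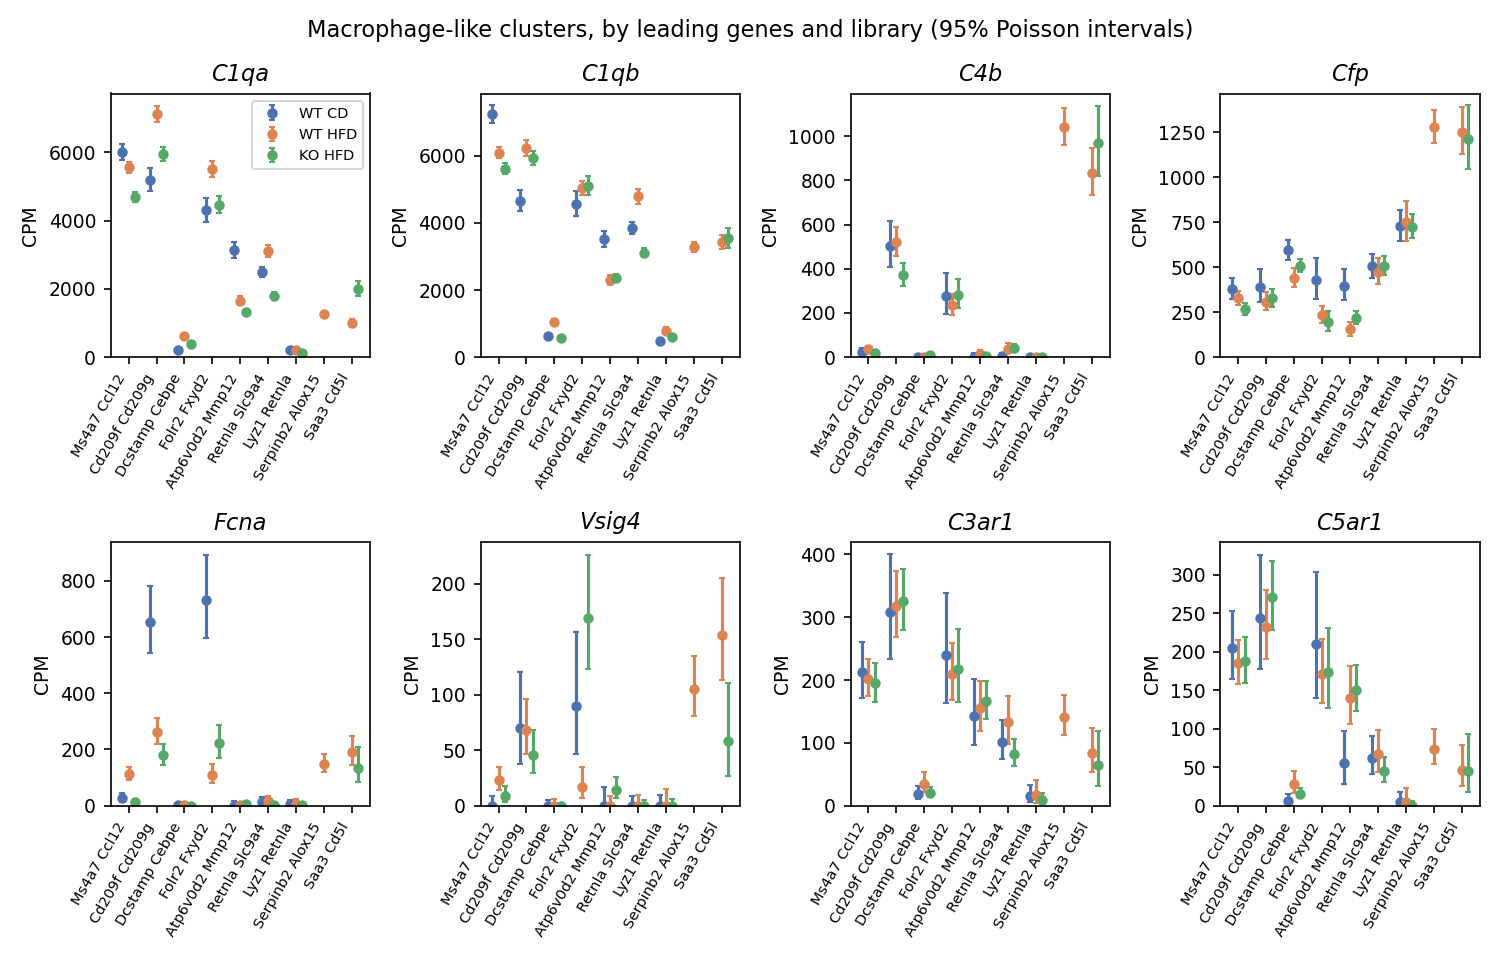
Each panel gives 1 complement gene in CPM (y axis) across the macrophage-like clusters (x axis), with 1 point for each library that has at least 10 cells there and exact Poisson 95% intervals. *C1qa* and *C1qb* are high in the *Ms4a7 Ccl12*, *Cd209f Cd209g* and *Folr2 Fxyd2* clusters, and *C4b* and *Cfp* in *Serpinb2 Alox15* and *Saa3 Cd5l*.

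High-fat diet was compared with control diet in wild-type mice, class by class, to see whether the diet moved with complement expression. A gene was counted as different where the levels differed at least 1.5-fold with at least 100 UMIs over both libraries, a rule of size and not a test. In FAP-like cells 2 of 16 members passed, both lower in WT HFD, against 2.81% of 10965 genes (1.54% lower, 1.27% higher). *C1rl* (0.37) and *Masp1* (0.54) were under the limit, but with clusters weighted alike both also passed, as higher in WT HFD. The *C1rl* ratio was then 0.68. *Masp1* passed with cells gated one by one as well, and its ratio reached 0.72 among the alternatives. The weighted ratios rest on low counts, as no cluster had 100 UMIs of either gene over both libraries. The *Ifit1 Ifit3* cluster, weighted like the others, held 3 *C1rl* UMIs and 0 *Masp1* UMIs over the 3 libraries. *C7* was 347.5 CPM in WT CD, 210 in WT HFD and 238 in KO HFD. The WT HFD level was lower than that of WT CD by a log2 ratio of -0.72 (-0.78 to -0.67), and it was lower in 6 of 6 FAP-like clusters with enough counts (-0.79 to -0.48). *C2* was 13.9, 7.94 and 12.0 CPM, with a log2 ratio of -0.81 (-1.11 to -0.52). In the 2 clusters with enough *C2* counts its ratio was -0.76 and -0.22. The *Sult1e1 Col6a5* cluster, where *C2* was highest, made up 13.7% of FAP-like cells in WT CD and 10.8% in WT HFD. A *C7* UMI was found in 49.2%, 35.1% and 38.1% of FAP-like cells after thinning to 3000 UMIs.

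The rest of the cascade in FAP-like cells differed less between the diets. *C3* was 1711 CPM in WT CD and 1836 in WT HFD (log2 ratio 0.10), and was higher in WT HFD in 7 of 7 clusters by 0.06 to 0.40. *Cfb* was 46.5 and 55.7 CPM (0.26), and was higher in WT HFD in 6 of 6 clusters, at least 1.5-fold in 3 of them (0.15 to 0.90). *C4b* was 111 and 98.1 CPM (-0.17, but higher in WT HFD in 4 of 6 clusters, -0.27 to 1.08), *Vtn* 84.3 and 64.0 CPM (-0.40) and *Clu* 66.3 and 52.4 CPM (-0.34). Within clusters with enough counts *Vtn* was lower in WT HFD in 5 of 5 (-1.06 to -0.10), at least 1.5-fold in 2. *Clu* was lower in 5 of 6 (-0.84 to 0.72), with 1 cluster past the limit in each direction. With clusters weighted alike the *Vtn* ratio turned to 0.15 and that of *Clu* was -0.0064. *Cd55* was just under the limit, with a log2 ratio of 0.58, and within the 7 FAP-like clusters its ratio ran from 0.02 to 0.43 while the *Stmn4 Dact2* cluster went from 15.8% of FAP-like cells to 21.9%. The median log2 ratio of the 16 members was 0.02, against 0.08 over all genes tested.

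In macrophage-like cells 4 of 17 members were at least 1.5-fold higher in WT HFD and none was lower, against 10.1% of 5877 genes (6.24% higher, 3.85% lower). With clusters weighted alike the 4 that passed (*C3*, *Colec12*, *Fcna* and *Cfb*) were all lower. The *Fcna* ratio was -0.22 over the class and went as low as -1.50 among the alternatives. *C4b* was 71.1 CPM in WT CD (189 UMIs in 44 cells), 287.6 in WT HFD (1249 UMIs in 147 cells) and 103.6 in KO HFD (548 UMIs in 98 cells). The WT HFD library stood above both others, by a log2 ratio of 2.02 over WT CD (1.80 to 2.25), or 4.05-fold. A *C4b* UMI was found in 19.5%, 36.6% and 22.3% of the macrophage-like cells of the 3 libraries (12.1%, 28.5% and 16.6% thinned). Without the *Serpinb2 Alox15* and *Saa3 Cd5l* clusters, a step added after the data were seen, *C4b* was 55.2, 114 and 66.8 CPM and the ratio to WT CD was 1.05, and within the larger *Cd209f Cd209g* cluster it was 504, 520 and 372 CPM. With clusters weighted alike, which takes in only those with at least 10 cells in both libraries and so leaves out both small ones, the *C4b* ratio was 0.07. The 78 cells of those 2 small clusters held 1110 of the 1986 macrophage-like *C4b* UMIs.

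*Vsig4* was 16.2, 38.5 and 22.3 CPM in WT CD, WT HFD and KO HFD, a log2 ratio of 1.25 between the diets (0.76 to 1.77), although 41 of the 43 WT CD UMIs lay in 5 cells. *Cd55* was 9.78, 22.1 and 11.5 CPM (1.18, 0.54 to 1.86) and *Cfb* 12.0, 21.2 and 11.3 CPM (0.82, 0.22 to 1.44), from 183 *Cd55* UMIs in 65 cells over the 3 libraries and, for *Cfb*, 32 UMIs in WT CD of which 24 lay in 5 cells. Without the 2 small clusters *Vsig4* was 9.78, 17.3 and 17.1 CPM and *Cfb* 10.2, 9.24 and 8.08 CPM, and with clusters weighted alike the diet ratios of both turned negative (-0.57 and -0.94). *Vsig4* no longer passed with complement genes kept in the clustering (0.41) or, for fewer than 100 UMIs, without the 2 small clusters (0.82). *Cd55* was under the limit with clusters weighted alike (0.52), and had fewer than 100 UMIs with called doublets removed (0.61) and with complement genes kept in the clustering. *C1qa* was 2456, 3236 and 2163 CPM, *C1qb* 3033, 3946 and 2830 and *C1qc* 1499, 2176 and 1471. Over the whole class the C1q chains were thus highest in WT HFD, by log2 ratios over WT CD of 0.40, 0.38 and 0.54 that stayed under the limit. The make-up of the class differed between the libraries. The C1q-rich *Ms4a7 Ccl12*, *Cd209f Cd209g* and *Folr2 Fxyd2* clusters held 25.7%, 10.6% and 7.96% of macrophage-like cells in WT CD, 29.6%, 16.2% and 12.9% in WT HFD and 23.2%, 16.9% and 7.97% in KO HFD. The C1q-poor *Dcstamp Cebpe* and *Lyz1 Retnla* clusters held 18.6% and 13.3%, 8.96% and 4.48%, and 17.3% and 9.57%. Within clusters the diet ratio of *C1qa* ran from -0.92 to 1.53 and was above 0 in 5 of 7, and that of *C1qb* ran from -0.62 to 0.71. These ratios turned to -0.27, -0.20 and -0.11 when complement genes were kept in the clustering, whereas *C1qa* passed without the 2 small clusters (0.65) and *C1qc* passed without them (0.59) and with cells gated one by one by their markers (0.62). *C3ar1* was 109, 154 and 117 CPM (0.50) and *C5ar1* 80.1, 117 and 97.4 CPM (0.55) over the class. Within clusters with enough counts *C3ar1* was higher in WT HFD in 1 of 3 (-0.19 to 0.04) and *C5ar1* in 0 of 2 (-0.15 and -0.07), and both ratios turned negative with complement genes kept in the clustering (-0.16 and -0.14). Without the 2 small clusters both passed (0.59 and 0.68), as did *C5ar1* with cells gated one by one (0.62). *C3* was 84.6 CPM in WT CD and 59.6 in WT HFD (-0.50), and was past the limit with called doublets removed (-0.71), without the 2 small clusters (-0.60) and with clusters weighted alike (-1.26). The median log2 ratio of the 17 members was 0.38 against 0.03 over all genes tested.

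**Figure D3:**
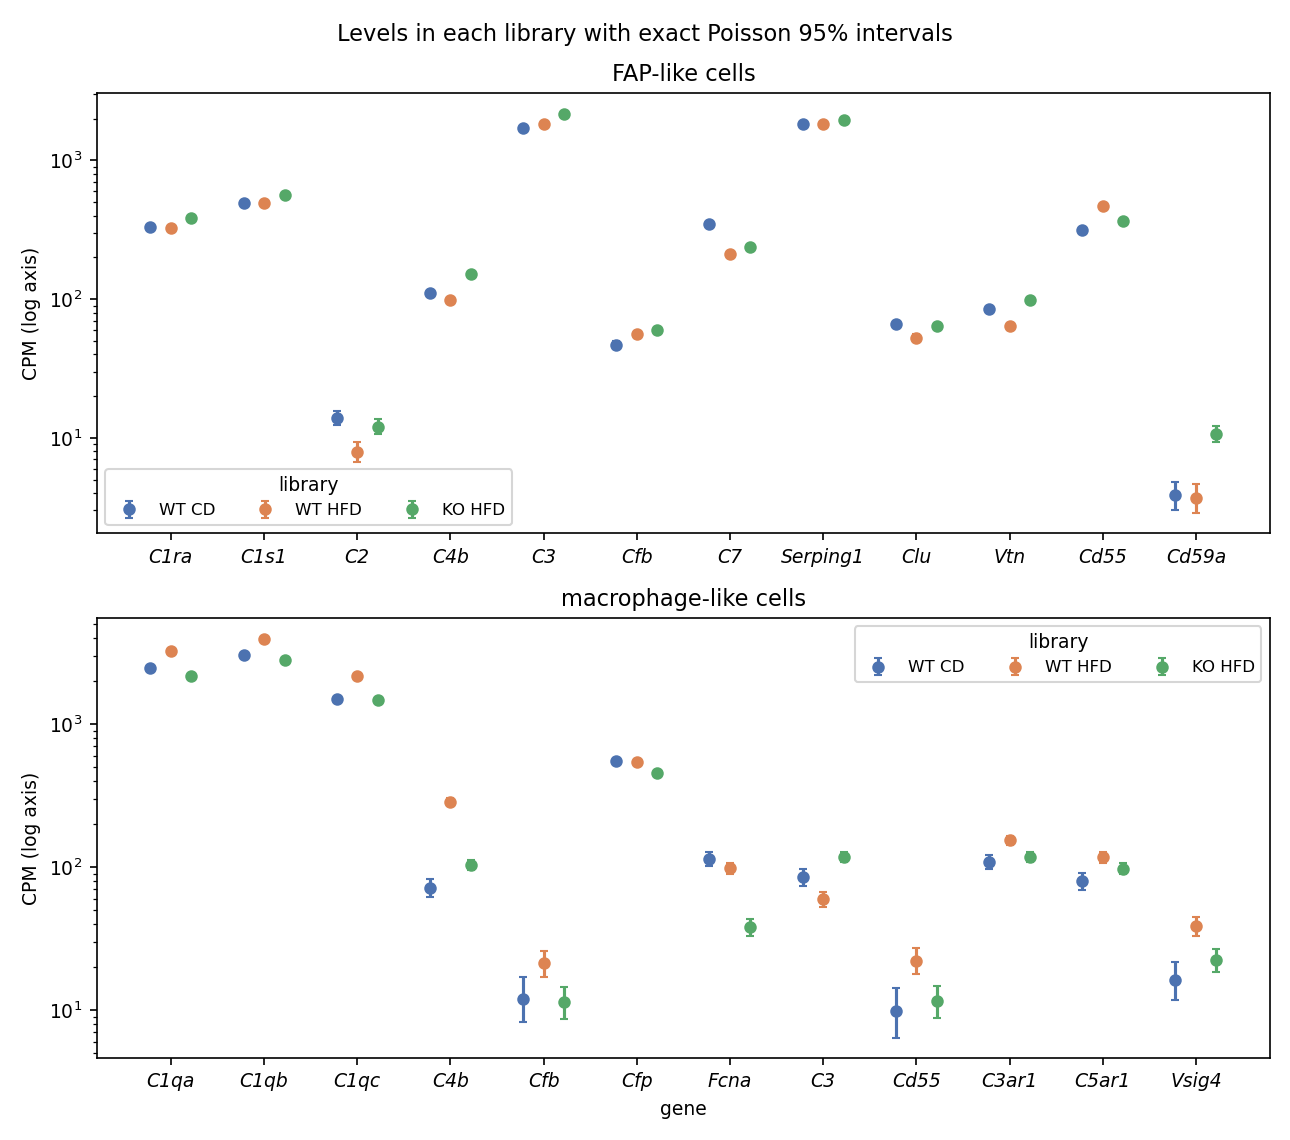
Levels in CPM on a log axis of selected complement genes in FAP-like and macrophage-like cells, with 1 point for each library (WT CD, WT HFD, KO HFD) and exact Poisson 95% intervals. In FAP-like cells *C7* is highest in WT CD and *Cd59a* in KO HFD, and in macrophage-like cells *C4b* is 71.1, 287.6 and 103.6 CPM.

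The KO HFD library was compared with WT HFD to ask what *Thbs1* loss moved with under the same diet, and the WT HFD library is the one already used above, so the ratios of the 2 comparisons are not independent. *Thbs1* itself was 136 CPM in WT CD, 202 in WT HFD and 163 in KO HFD over all cells. A *Thbs1* UMI was found in 21.6%, 25.2% and 31.5% of cells. These 3′ tags may lie outside the disrupted part of the gene. Their position was not examined, and the level was therefore not used to check the label.

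In FAP-like cells 6 of 17 members were at least 1.5-fold higher in KO HFD and none was lower, against 1.99% of 11041 genes (1.25% higher, 0.743% lower). *C4b* was 111, 98.1 and 152 CPM in WT CD, WT HFD and KO HFD, a log2 ratio of 0.63 to WT HFD (0.55 to 0.71). Within the 6 clusters with enough counts the *C4b* ratio ran from -0.41 to 1.19 and was above 0 in 5. In the *Gdf10 Col6a5* cluster *C4b* was 149.9, 180.7 and 285.2 CPM, whereas in the *Sult1e1 Col6a5* cluster, which holds most of it, the level was 416 CPM in WT HFD and 439 in KO HFD. That cluster made up 13.7%, 10.8% and 15.7% of FAP-like cells in WT CD, WT HFD and KO HFD. *Vtn* was 84.3, 64.0 and 99.3 CPM, a ratio of 0.63 (0.53 to 0.74), and was higher in KO HFD in 7 of 7 clusters (0.33 to 0.99). *C2* (0.60, 0.30 to 0.90) and *Masp1* (2.38, 3.47 and 5.47 CPM, 0.66, 0.21 to 1.12) were low in count, and in the 2 clusters with enough *C2* counts its ratio was 0.07 and 0.23. With FAP-like clusters weighted alike 3 members passed, *Cd59a* and *Cfd* as higher and *C1rl* (-0.69, against -0.42 over the class) as lower in KO HFD. Under that weighting *C4b* (0.23), *Vtn* (0.55), *Masp1* (0.57) and *C2* (0.27) did not pass. *C2* was also under the limit among cells with at least 500 genes and at most 10% mitochondrial UMIs (0.58). The median log2 ratio of the members was 0.23 against -0.03 over all genes tested, and *C3* was 1711, 1836 and 2162 CPM with a ratio of 0.24.

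Between KO HFD and WT HFD in FAP-like cells, *Cd59a* had the widest difference of the members spread over many cells. It was 3.85, 3.68 and 10.8 CPM in FAP-like cells of WT CD, WT HFD and KO HFD, with a UMI in 64, 58 and 198 cells, a log2 ratio of 1.55 to WT HFD (1.15 to 1.96). It was also 3.26, 5.70 and 16.0 CPM in MuSC-like cells and 7.65, 10.6 and 38.8 CPM in lymphatic-like cells, from 72 and 33 UMIs in all. In the classes where *Cd59a* was plentiful the KO HFD level was not the highest: endothelial-like cells had 76.3, 108 and 81.6 CPM and Schwann-like cells 329.9, 536.5 and 352.0 CPM. *Cd59a* lies on chromosome 2 at 104095801 to 104115354, beside its near copy *Cd59b* (104069849 to 104091187), and the disrupted *Thbs1* lies on the same chromosome at 118111876 to 118127133. *Cd59b* was 3.90, 4.16 and 4.66 CPM in FAP-like cells. The part of that position and of the strain origin of the disrupted allele in the difference was not tested.

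*Cfd* passed the size rule on 2 cells. KO HFD FAP-like cells had 176 *Cfd* UMIs, 155 in 1 cell and 21 in another, against 3 UMIs in WT HFD and 4 in WT CD. Both cells lay in the *Gdf10 Col6a5* cluster, had 4520 and 689 UMIs in all, no UMI of *Pdgfra* or *Dcn*, and 28 and 3 UMIs of the adipocyte gene *Adipoq*. Adipocyte markers summed to 4, 4 and 43 UMIs in FAP-like cells of the 3 libraries.

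In macrophage-like cells 6 of 18 members differed at least 1.5-fold, 5 lower and 1 higher in KO HFD, against 6.64% of 6794 genes (3.65% lower, 2.99% higher). *C4b* was lower in KO HFD than in WT HFD by a log2 ratio of -1.47 (-1.62 to -1.33), and the ratio was -0.78 without the *Serpinb2 Alox15* and *Saa3 Cd5l* clusters and 0.015 with clusters weighted alike. *Fcna* was 114, 97.9 and 38.0 CPM in WT CD, WT HFD and KO HFD, with the KO HFD library below both others (-1.36 to WT HFD, -1.61 to -1.12). *Fcna* stood at 655.2, 262.3 and 178.5 CPM in the *Cd209f Cd209g* cluster but at 733, 110 and 222 CPM in the *Folr2 Fxyd2* cluster, where the order of WT HFD and KO HFD was the opposite, and with clusters weighted alike the ratio was -0.33, under the limit. *Vsig4* (-0.79, -1.14 to -0.44), *Cd55* (-0.94) and *Cfb* (-0.90) were also lower, although *Vsig4* and *Cfb* turned to 0.18 and 0.42 with clusters weighted alike and *Cd55* did not pass with called doublets removed (-0.52). Without the 2 small clusters *Vsig4* (-0.015) and *Cfb* (-0.19) were also under the limit, as was *Vsig4* with complement genes kept in the clustering (-0.23). The C1q chains were lower in KO HFD by log2 ratios of -0.58, -0.48 and -0.56, under the limit. *C1qa* and *C1qc* passed with cells gated one by one (-0.63 and -0.62) and without the 2 small clusters (-0.79 and -0.62). In the other direction, the weakest ratios among the alternatives were -0.12 for *C1qa*, -0.074 for *C1qb* and -0.092 for *C1qc*.

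The 1 member higher in KO HFD macrophage-like cells was *C3*, at 84.6, 59.6 and 118 CPM, a log2 ratio of 0.98 to WT HFD (0.77 to 1.20), which was 0.28 and did not pass when complement genes were kept in the clustering. Over the 3 libraries *C3* was found in 159 of 1067 macrophage-like cells and 31.1% of its UMIs lay in 5 of them. Apart from the *Serpinb2 Alox15* and *Saa3 Cd5l* clusters, *C3* summed over the 3 libraries was highest in the *Retnla Slc9a4* cluster. That rank held in KO HFD, whereas the *Folr2 Fxyd2* cluster ranked first in WT CD and WT HFD. In *Retnla Slc9a4* the *C3* level was 171 CPM in WT CD, 26.6 in WT HFD and 424 in KO HFD. That cluster held 11.1%, 6.22% and 10.9% of macrophage-like cells. FAP markers, mostly *Dcn*, summed to 610, 502 and 479 CPM in macrophage-like cells of WT CD, WT HFD and KO HFD. In the *Retnla Slc9a4* cluster FAP was the class with the next marker score after macrophage. Among the same clusters the summed levels of *C1ra* (46.0 CPM), *C1s1* (53.2 CPM) and *C7* (26.9 CPM) were also highest there. The part of RNA from FAP-like cells in the *C3* level was not tested. *Serping1* was 63.2, 66.3 and 99.3 CPM in the same cells (0.58), just under the limit. Its ratio depended on the processing, from 1.27 with called doublets removed to -0.59 with complement genes kept in the clustering, and it also passed with TMM scaling (0.61) and without the 2 small clusters (0.62). Among the same clusters *Serping1* summed over the 3 libraries was also highest in *Retnla Slc9a4*, at 293, 90.4 and 412 CPM by library. In WT HFD the *Folr2 Fxyd2* cluster ranked first. The median log2 ratio of the 18 members was -0.39 against 0.01 over all genes tested.

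**Figure D4:**
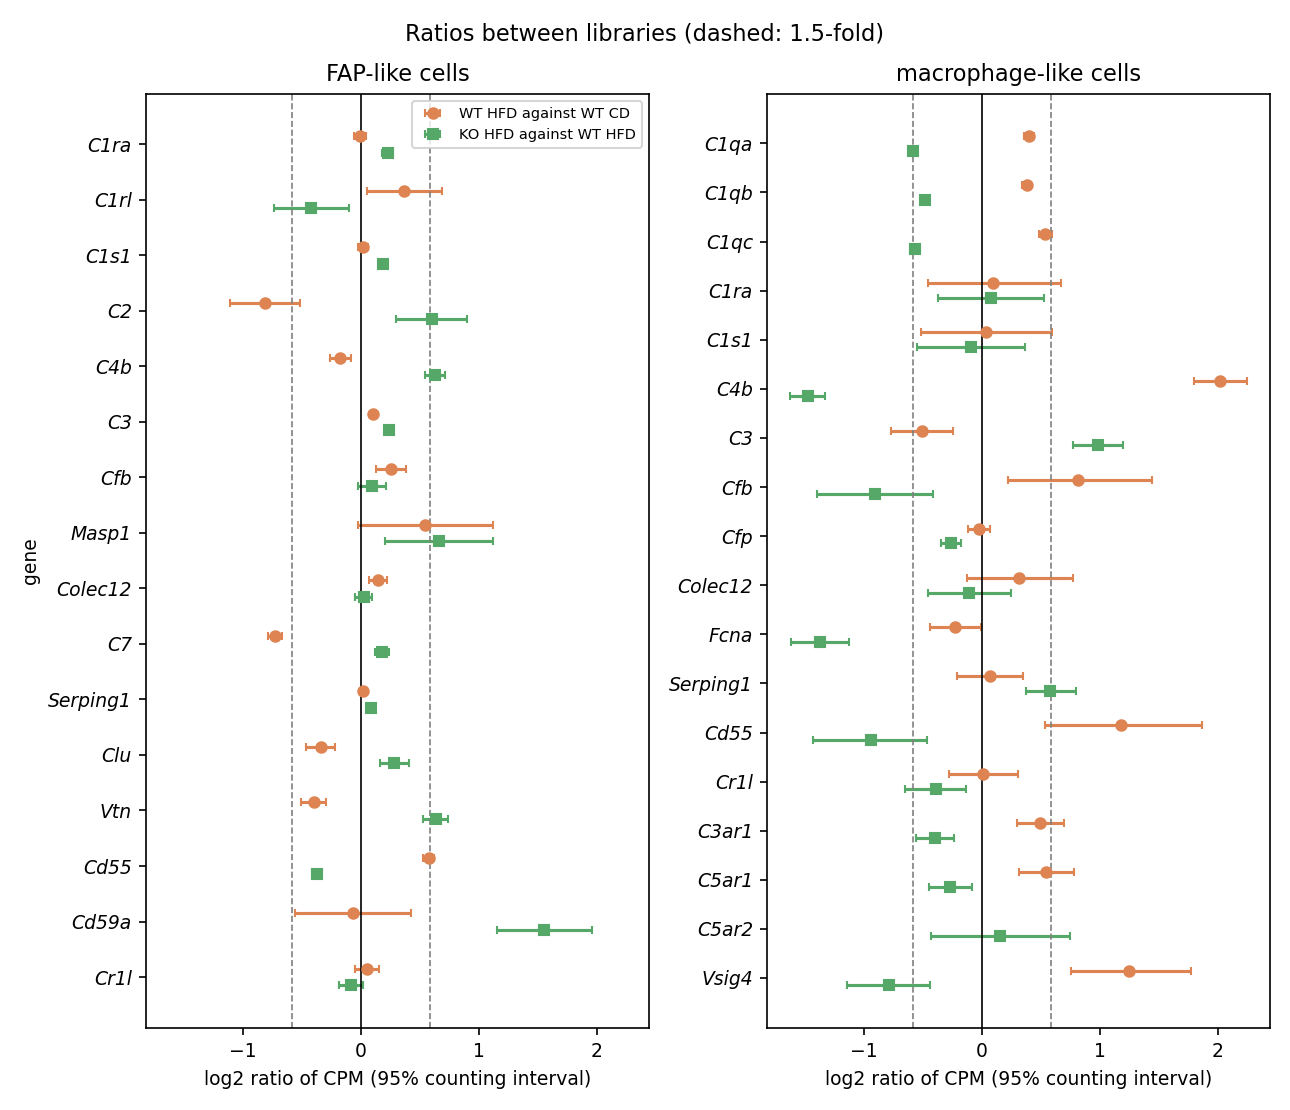
Log2 ratios (x axis) of the complement genes tested in FAP-like and macrophage-like cells, as circles for WT HFD against WT CD and squares for KO HFD against WT HFD, with 95% counting intervals and dashed lines at 1.5-fold (*Cfd* is left out because its KO HFD counts lay in 2 cells). *C4b* in macrophage-like cells lies at 2.02 and -1.47.

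Mesothelial-like cells, with 40, 86 and 51 cells in WT CD, WT HFD and KO HFD, had the highest *C3* and *C4b* of any class in each library. *C3* was 4507, 5892 and 6442 CPM and *C4b* 940, 1795 and 2009 CPM, while *C2* was 526, 438 and 449 CPM and *Cfb* 397, 539 and 710 CPM. Between KO HFD and WT HFD 0 of 11 members differed by 1.5-fold in these cells (4.79% of 2190 genes did), with ratios from -0.40 for *Cd55* to 0.40 for *Cfb*. With 1 library in each group that count has no test and no other tool was run on it. The diet comparison was not made there because WT CD had under 50 such cells.

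In endothelial-like cells *Cd55* was 36.1 CPM in WT CD and 92.1 in WT HFD, 1 of 6 members that passed (4.97% of 3564 genes), with a log2 ratio of 1.35. Between KO HFD and WT HFD 3 of 7 members passed there (5.13% of 3351 genes), *C1s1* at 0.96, *Serping1* at 0.99 and *C3* at 1.52, though 88.5% of the KO HFD *C3* counts lay in 5 cells. In lymphatic-like cells *C3* was higher in WT HFD than in WT CD (0.82) and higher again in KO HFD (1.15), with 2 of 4 and 1 of 5 members passing (11.5% of 1868 and 8.59% of 2142 genes). In MuSC-like cells *C3* and *Vtn* were lower in WT HFD (-0.75 and -0.76, 2 of 9 members, 13.9% of 4107 genes), and *Cd55* was higher in KO HFD than in WT HFD (0.66, 1 of 9 members, 4.37% of 4985 genes). In B cell-like cells *Cr2* was 25.2 CPM in WT CD and 14.9 in WT HFD (-0.76), 1 of 5 members of 9 that passed (6.6% of 3956 genes). The other 4 were the C1q chains and *C3*, and the C1q counts lay in the few cells with macrophage markers described above. Between KO HFD and WT HFD only *Cd55* passed in these cells, at 137 CPM in WT HFD and 216 in KO HFD (0.66, 1 of 8 members, 7.53% of 2112 genes). In T or NK cell-like cells *Serping1* (83.9 CPM in WT CD, 138 in WT HFD) and *C1qb* passed for diet (2 of 4 members, 6.68% of 1242 genes) and *C1qb* for genotype (1 of 2 members, 14.8% of 1168 genes), and the C1q counts of this class lay in 4 cells. The part of RNA from other cells in the *C3* and *Serping1* counts of these classes was not tested.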

How the data were processed

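Droplet 3′ single-cell RNA-seq was run on live diaphragm mononuclear cells, isolated on 1 day, in 3 libraries of 2 pooled mice each. The deposited matrices hold raw UMI counts per gene and cell, made by the authors with Cell Ranger (6.1.1 in the submitters' processing notes) on mm10 (GRCm38), with no normalization. The authors' cell annotation was not used here. All 12275 cells were kept, with 34312860, 31967976 and 36478779 UMIs in WT CD, WT HFD and KO HFD.

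Counts were scaled to 10000 per cell and log-transformed, and 2000 variable genes without the complement genes gave 30 principal components (values capped at 10), 15 neighbours and Leiden clusters at resolution 1 (scanpy 1.11.5, leidenalg 0.10.2), some split again at 0.3 and 0.5. Clusters were named from marker lists where the mean log2 ratio of the markers to their median level over all clusters was at least 1. At least 3 markers also had to be in at least 10% of cells. Clusters low in UMIs without a leading marker of their own, or with more leading markers of another class, stayed unnamed. These settings were set while the clusters were examined. Doublets were called at an assumed rate of 6% in an alternative only.

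UMIs were summed per class and library as CPM with exact Poisson intervals, shares had exact binomial (Clopper-Pearson) intervals, and log2 ratios had conditional binomial intervals. The 95% level was used throughout, and these intervals hold only the error of counting. A gene passed where it differed at least 1.5-fold with at least 100 UMIs over both libraries, in classes of at least 50 cells in each library. There were no replicates, so no test was run. The rule for named genes was every member, other complement genes with at least 100 CPM in a class of at least 50 cells, *Thbs1* and class markers. 1 further gene of that list is not reported here. *C4a*, *C1rb*, *C1s2*, *Cd59b*, *Cd55b*, *C8a*, *C8b* and *Mbl1* were named after their values were seen. The members and lists were chosen with earlier results of these data known. Alternatives were edgeR (4.0.16) TMM factors, a minimum of 30 UMIs, cells with at least 500 genes and at most 10% mitochondrial UMIs, doublets removed, cells gated one by one by markers, clustering with complement genes kept, clusters (with at least 10 cells in both libraries) or libraries weighted alike, and, added after the data were seen, leaving out 2 macrophage-like clusters. The scripts were tested on simulated counts, which hold counting error only.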

Additional observations from a re-analysis of the deposited data

Results flagged for a closer look

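Summed over whole classes, the *C4b* ratios had opposite signs in FAP-like and macrophage-like cells. Between WT HFD and WT CD the log2 ratio was -0.17 in FAP-like cells, under the 1.5-fold limit and higher in WT HFD in 4 of 6 clusters (-0.27 to 1.08), and 2.02 in macrophage-like cells. Between KO HFD and WT HFD it was 0.63 in FAP-like cells and -1.47 in macrophage-like cells. Within macrophage-like clusters with enough counts *C4b* was higher in KO HFD in 2 of 3 (-0.49 to 0.27). With clusters weighted alike the genotype ratios were 0.23 and 0.015, of the same sign and under the limit. The macrophage-like diet ratio was then 0.07. With 1 library in each group the difference between the classes was not tested, and both comparisons share the WT HFD library.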

How the results depend on the processing

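No paired analysis was possible because each group had 1 library. Leaving out replicates was likewise not possible. Of 509 values of single members under the alternatives, 374 stayed within their counting interval and 80 left it with the call unchanged, 31 gained a call, 17 lost one and 7 reversed. Of the 374, 68 came from the minimum of 30 UMIs. That setting leaves every ratio as it was, so these 68 could not move and say nothing about stability. In FAP-like cells *C7* (-0.79 to -0.62) and *C2* (-0.87 to -0.69) stayed lower in WT HFD than in WT CD and *Cd59a* (1.55 to 1.75) higher in KO HFD under every alternative. With clusters weighted alike, 4 members passed in FAP-like cells for diet and 3 for genotype, where *C4b* (0.23), *Vtn* (0.55), *Masp1* (0.57) and *C2* (0.27) no longer did. The *C2* call was also lost with cells of at least 500 genes and at most 10% mitochondrial UMIs (0.58). The calls gained in FAP-like cells with clusters weighted alike kept the sign of their own ratios over the class. For diet the gained calls were *C1rl* (0.68, against 0.37 over the class) and *Masp1* (0.54 over the class), both higher in WT HFD. For genotype the gained call was *C1rl* (-0.69, against -0.42 over the class), lower in KO HFD. The members that passed over the class had the opposite direction, lower in WT HFD for diet and higher in KO HFD for genotype. *Masp1* was also gained for diet with cells gated one by one. In macrophage-like cells for diet, 8 members passed with cells gated one by one and 7 without the clusters led by *Cd5l* and *Alox15*. With clusters weighted alike 3 passed for genotype, and the 4 that passed for diet (*C3*, *Colec12*, *Fcna* and *Cfb*) were all lower, *Cfb* against its reported direction. That weighting takes clusters with at least 10 cells in both libraries, so that for diet the clusters led by *Cd5l* and *Alox15* had no weight. For genotype the *Saa3 Cd5l* cluster, with 19 and 10 cells, met that minimum. Reversed ratios for diet were those of *Cfb* (-0.023 with complement genes kept in the clustering, -0.94 weighted alike, -0.14 without the 2 clusters) and *Vsig4* (-0.57 weighted alike). For genotype, weighting alike turned *C4b* (0.015), *Cfb* (0.42) and *Vsig4* (0.18). The *C4b* diet ratio was 0.07 weighted alike, 1.05 without the 2 clusters and 1.20 with complement genes kept. The diet ratios of *C1qa*, *C1qb* and *C1qc* turned to -0.27, -0.20 and -0.11 with complement genes kept, where a cluster of 522 cells led by *Retnla* stayed unnamed, and there the macrophage-like share of C1q UMIs was 78.6%. That share was 91.8% gated and 92.6% with libraries weighted alike. The FAP-like share of *C3* was 89.5% with doublets removed and 87.1% gated. The causes were not tested.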

Other observations

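Mural cell-like cells, with 17, 29 and 27 cells in WT CD, WT HFD and KO HFD, had the highest *Vtn* level, at 444, 716 and 1020 CPM, and *Serping1* at 530, 442 and 1082 CPM. Their cell numbers were below those needed for a comparison, and the values are given without one. *Clu* in endothelial-like cells was 334, 304 and 371 CPM, within 1.5-fold in each comparison.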
